A study of Homo sapiens with 9 samples.

Results

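The WNT system of A431 cells was followed through 49 genes of the 58051 in the deposited table. They were chosen by symbol alone, as every WNT ligand, every frizzled receptor (FZD) and every gene named DKK or SFRP with a number, together with LRP5, LRP6, ROR1, ROR2, RYK, WIF1, FRZB, AXIN2, LGR4, LGR5, RNF43 and ZNRF3. By role they are 19 ligands, 10 frizzled receptors, 5 co-receptors or other receptors, 10 secreted antagonists and 5 genes of receptor turnover and feedback. The cell line A431 comes from an epidermoid carcinoma and carries mutant p53 of its own. Poly(A) RNA had been sequenced in 9 libraries, 3 of A431 parental (mutp53) cells, 3 of A431 Ctrl (mutp53) cells and 3 of A431 p53 KO cells. Parental cells were not edited, p53 KO cells are a stable CRISPR line made with a GFP construct against p53, and Ctrl cells are a stable line made with the matching construct that the study calls empty vector. All cells were colony-grown lines in the same serum-containing medium, harvested 48 h after settling, so a difference between lines and an effect of p53 loss cannot be told apart. The labels do not say whether an edited line is a single clone or a pool. The question was how losing mutant p53 bears on gene expression in these cells, and for the WNT system it was asked gene by gene against both controls.

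WNT ligands are secreted lipid-modified proteins that bind frizzled receptors on the cell surface. With the co-receptors LRP5 and LRP6 they stabilise beta-catenin, which drives target genes through TCF and LEF factors, whereas ROR1, ROR2 and RYK serve beta-catenin-independent branches that act on cell shape and movement. DKK, SFRP, WIF1 and FRZB proteins hold ligands or co-receptors back, RNF43 and ZNRF3 remove frizzled receptors from the surface, and in squamous epithelium WNT7A, WNT7B, WNT10A and WNT4 are familiar ligands.

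Between 19783778 and 29840452 counts fell on genes in each library. Nothing in the labels says that the 3 libraries of a group came from separate cultures, so the p-values measure the spread between these libraries, which may be technical. Levels are given in CPM, counts scaled to library size by the TMM method of edgeR. Of 10 squamous epithelial markers, 9 had over 10 counts in every library and KRT14 had between 0 and 13, while 4 of 7 fibroblast markers (COL3A1, DCN, LUM and PDGFRA), the blood markers PTPRC and CD3E, 1 of 4 endothelial markers (KDR) and 2 of 5 markers of melanocytes and glia (TYR and SOX10) were at 0 throughout. Others of these lists were counted in every library, among them COL1A1 (47 to 114 counts), CD68 (15 to 42), MITF (143 to 360) and PMEL (20 to 43). Ctrl replicate 1 stood apart. The log2 level of its longest genes minus that of its shortest genes (upper and lower quartile of exon length) was -0.47, each relative to the mean of all libraries, against -0.19 in p53 KO replicate 3 and values between -0.02 and 0.21 in the other libraries. Its part in the results was not tested, and calls of members against parental or Ctrl cells that changed without it are given beside their values. Calls of the pathway list genes named further below were not checked without it. In RNA from whole cultures, fewer cells of a kind and less RNA per cell cannot be told apart.

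Of the 49 genes, 24 passed the filter on low counts and were tested among 14513 genes, and 14 had no count in any library. The filter asks for about 10 counts in the libraries of 1 group, and 1 member, ROR2, reached 10 counts in all libraries of p53 KO cells only. Such a gene could pass only by being higher there. The 11 genes that had counts but did not pass had at most 14 counts in any library, so their differences were not detectable at this depth unless stated below. A count of 3, taken as the floor, corresponded to between 0.101 and 0.152 CPM.

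Against parental cells, 8 of the 24 tested genes passed in p53 KO cells (adjusted p of at most 0.05 in the quasi-likelihood test of edgeR, Benjamini-Hochberg adjusted over 14513 genes), beside 18.1% of all genes tested. WNT7A, WNT10A, FZD1 and ROR2 were higher, beside 9.77% of all genes, and WNT7B, RYK, DKK3 and ZNRF3 were lower, beside 8.36%. Against Ctrl cells 13 passed, beside 29.2% of all genes, with WNT4, WNT7A, FZD1, FZD3, FZD4, ROR1, ROR2 and DKK3 higher (15% of all genes) and WNT7B, WNT10A, FZD2, LRP5 and RYK lower (14.2%). The controls also differed from each other. In Ctrl against parental cells 8 passed, beside 20.3% of all genes, with WNT7B and WNT10A higher (10.6%) and WNT4, WNT7A, FZD1, FZD4, ROR1 and DKK3 lower (9.69%). Set against the mean of both controls, 13 passed beside 24.8% of all genes, 7 higher (13.1%) and 6 lower (11.6%), and 1 of them, ROR2, was past a log2 fold change of 1.5 (2.38%).

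Few changes were large. A log2 fold change past 1.5 together with an adjusted p of at most 0.05 was met by 0 members in p53 KO against parental cells (1.95% of all genes), by FZD1 and ROR2 against Ctrl cells (3.29%), and by WNT10A in Ctrl against parental cells (1.94%). In that first comparison DESeq2 also called 0, although 8 members passed the adjusted p alone. The median log2 fold change of the tested members was 0.0065 in p53 KO against parental cells, the same as the 0.0065 of all genes tested, and it was 0.099 against Ctrl cells beside 0.0060. In Ctrl against parental cells it was -0.15 beside 0.0029. These medians cover only the members that passed the filter. The comparisons share libraries and are therefore not independent of each other.

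**Figure D1:**
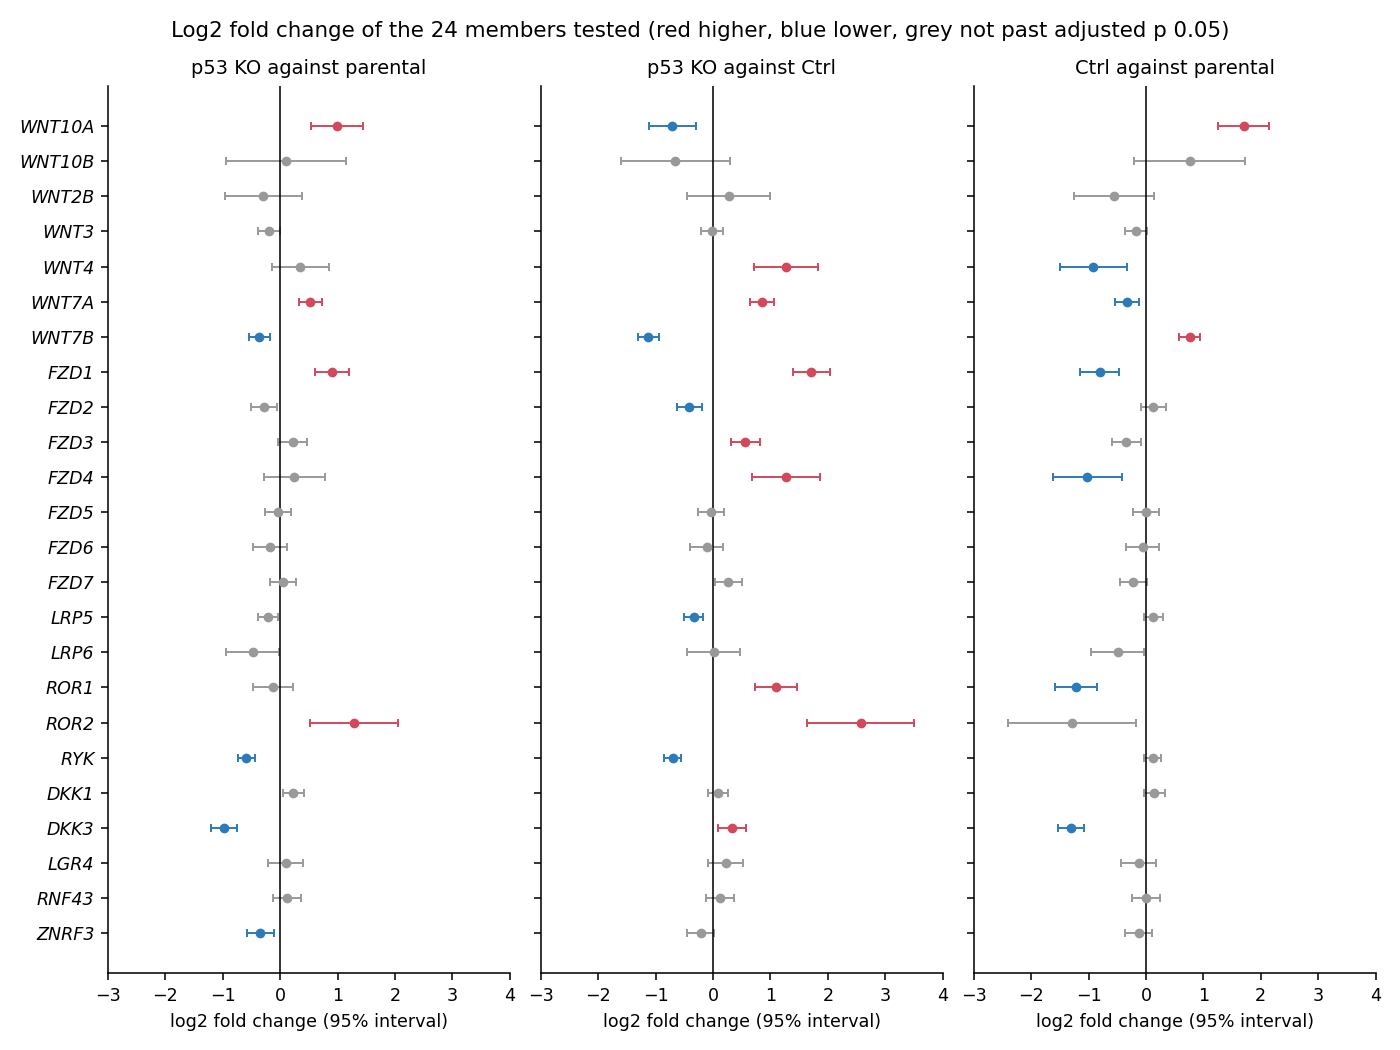
Log2 fold change with its 95% interval for each of the 24 tested genes, ordered by role, in 3 panels, from left p53 KO over parental, p53 KO over Ctrl and Ctrl over parental cells. Red points were higher and blue points lower at an adjusted p of at most 0.05, and grey points did not pass. FZD1 and WNT7A were red in both p53 KO comparisons, WNT7B and RYK blue in both, and WNT10A changed sides.

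Regulatory sequence at the start of 5 of the members described below is shown so that it can be read beside their values. They are the ligands WNT7A and WNT10A and the receptors FZD1, ROR2 and RYK, whose RNA differed from parental cells in the p53 KO line, and each sequence holds the 250 bases before the RefSeq start site on GRCh38.p14, written 5′ to 3′ on the strand of the gene. Capitals mark GGGCGG, the core letters of a GC box, or CCGCCC, the same letters on the other strand. WNT7A is read from the minus strand of chr3:13880072-13880321, WNT10A from the plus strand of chr2:218880602-218880851, FZD1 from the plus strand of chr7:91264183-91264432, ROR2 from the minus strand of chr9:91950229-91950478 and RYK from the minus strand of chr3:134250860-134251109.
WNT7A: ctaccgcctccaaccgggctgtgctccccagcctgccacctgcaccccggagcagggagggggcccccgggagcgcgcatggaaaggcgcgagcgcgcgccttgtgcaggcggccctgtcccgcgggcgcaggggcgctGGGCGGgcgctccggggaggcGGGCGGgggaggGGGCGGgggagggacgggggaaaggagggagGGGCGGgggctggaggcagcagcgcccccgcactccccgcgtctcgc
WNT10A: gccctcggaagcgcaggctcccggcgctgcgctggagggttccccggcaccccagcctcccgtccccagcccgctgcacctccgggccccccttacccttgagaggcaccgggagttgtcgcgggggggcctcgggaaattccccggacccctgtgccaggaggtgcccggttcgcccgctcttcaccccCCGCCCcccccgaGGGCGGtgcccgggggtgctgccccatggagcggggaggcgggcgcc
FZD1: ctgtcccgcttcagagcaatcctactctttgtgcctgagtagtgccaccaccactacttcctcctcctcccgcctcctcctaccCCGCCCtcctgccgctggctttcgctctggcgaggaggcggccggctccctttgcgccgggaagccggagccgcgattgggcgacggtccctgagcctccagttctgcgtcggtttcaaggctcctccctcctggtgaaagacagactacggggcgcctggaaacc
ROR2: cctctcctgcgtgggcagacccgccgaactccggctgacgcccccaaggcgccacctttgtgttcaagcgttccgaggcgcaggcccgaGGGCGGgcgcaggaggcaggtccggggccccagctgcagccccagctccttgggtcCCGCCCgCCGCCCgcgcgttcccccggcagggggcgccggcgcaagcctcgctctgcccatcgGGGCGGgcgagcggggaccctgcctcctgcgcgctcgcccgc
RYK: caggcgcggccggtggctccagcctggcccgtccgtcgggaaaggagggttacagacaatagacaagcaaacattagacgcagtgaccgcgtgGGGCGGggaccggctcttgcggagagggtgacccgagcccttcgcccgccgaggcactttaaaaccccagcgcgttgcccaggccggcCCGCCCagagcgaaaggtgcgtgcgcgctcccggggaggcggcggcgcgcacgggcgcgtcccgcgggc
All of them are rich in G and C, at 80.4% for WNT7A, 77.6% for WNT10A, 65.2% for FZD1, 78.0% for ROR2 and 72.0% for RYK. RefSeq windows were matched for 33 of the 49 genes, 15 of them tested. On both strands, GGGCGG was found in 11 of those 15, beside 42.6% of all 35116 promoter windows of the same length. CTTTGA, the core letters read by TCF and LEF factors, was found in 1 of the 15, DKK1 with 2 matches, beside 11.2% of all windows. The letters of these motifs shared bases in 0 member windows. A p53 half-site, searched by its consensus, was found in 0 of the 15 and in 5.6% of all windows. A match is a description of letters and not of binding.

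The ligands were dominated by WNT7B. Per kilobase of exon (FPKM, CPM divided by the summed exon length), WNT7B made up 57.6% ± 0.353 (SD, n = 3) of all ligand RNA in parental cells, 62.3% ± 4.24 in Ctrl cells and 42.9% ± 1.90 in p53 KO cells. WNT7A held 18.4% ± 1.08, 9.35% ± 0.365 and 25.4% ± 1.37 in the same order, and WNT10A held 9.65% ± 0.124, 19.8% ± 4.37 and 18.4% ± 0.170. WNT3 took most of what remained, with 11.9%, 6.77% and 10.0% in the same order. The share of WNT7A in p53 KO libraries thus lay above, and that of WNT7B below, every library of both controls. Summed over all ligands the level was 17.3 ± 0.827 FPKM in parental, 27.3 ± 2.97 FPKM in Ctrl and 18.0 ± 0.614 FPKM in p53 KO cells, so ligand RNA was most abundant in Ctrl libraries. These shares are descriptions and were not tested.

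**Figure D2:**
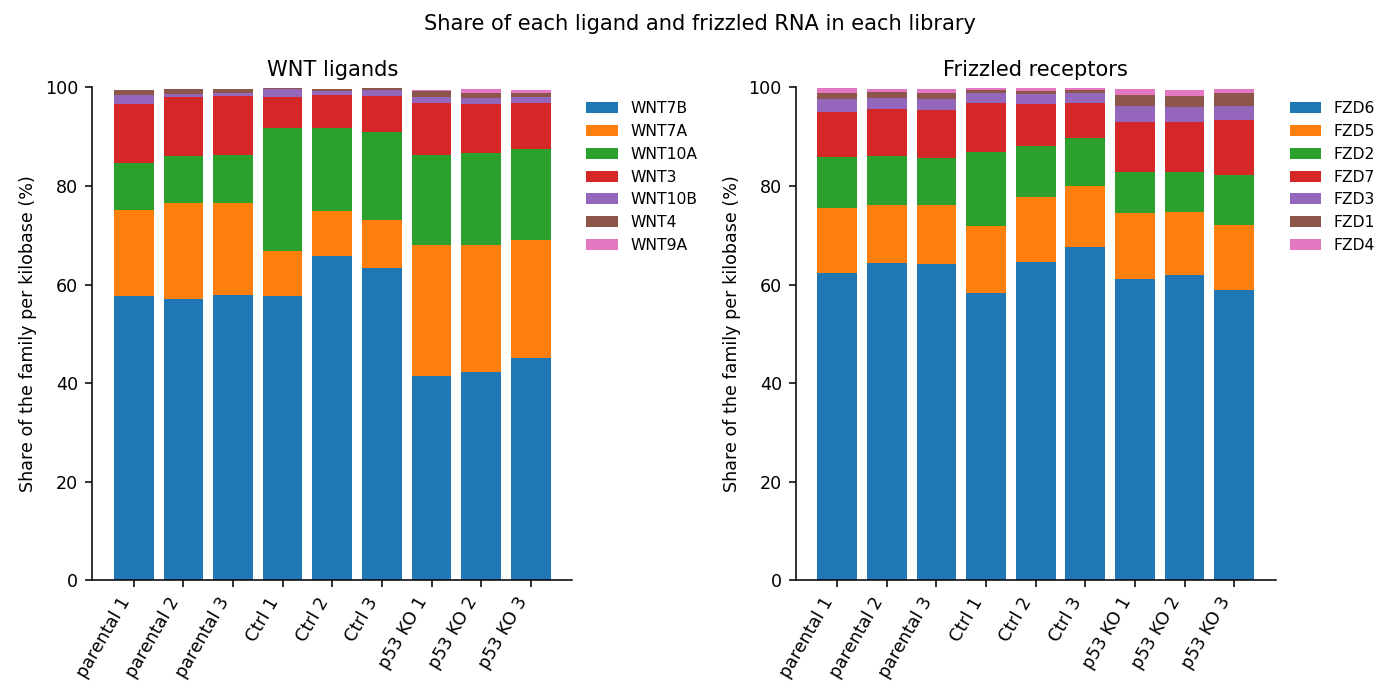
Share in percent of each ligand (left) and each frizzled receptor (right) in the summed FPKM of its family, 1 bar per library, with the smallest members left out so that bars end just below 100. WNT7B fills the largest part of every ligand bar and the least in the p53 KO libraries, while FZD6 fills 58.3 to 67.7% of every frizzled bar.

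WNT7B (chr22:45920366-45977162, GRCh38, GENCODE release 44 positions here and below) is an epithelial ligand that can signal through beta-catenin. It stood at 53.4, 49.9 and 48.7 CPM in parental, at 89.8, 87.1 and 81.0 CPM in Ctrl and at 37.3, 37.9 and 43.0 CPM in p53 KO libraries. The 3 groups did not overlap, with Ctrl libraries highest and p53 KO libraries lowest. The p53 KO cells had a log2 fold change of -0.36 ± 0.08 (standard error) against parental cells (adjusted p = 0.0106) and of -1.13 ± 0.08 against Ctrl cells (adjusted p = 3.67e-06). In Ctrl against parental cells it was 0.76 ± 0.08 (adjusted p = 0.00013). The call against parental cells was lost without parental replicate 1 (adjusted p = 0.0567), p53 KO replicate 1 (0.0548) or p53 KO replicate 2 (0.0526).

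WNT7A (chr3:13816258-13880071), the closest relative of WNT7B, went the other way. Parental libraries held between 14.0 and 15.1 CPM, Ctrl libraries between 10.6 and 12.9 CPM and p53 KO libraries between 20.3 and 21.3 CPM, again without overlap. It was 1.44-fold higher than in parental cells (log2 fold change 0.52 ± 0.09, adjusted p = 0.00241) and 1.8-fold higher than in Ctrl cells (0.85 ± 0.09, adjusted p = 5.83e-05). Ctrl cells stood below parental cells, at -0.33 ± 0.09 (adjusted p = 0.0315), a call that was lost without any 1 of 7 libraries, with an adjusted p of up to 0.106. The 54 genes around it within 5 Mb had median log2 fold changes of -0.047 and -0.022 in the p53 KO comparisons.

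WNT10A (chr2:218880852-218899581), a ligand needed for teeth, hair and other skin appendages, was raised in both edited lines. It was counted at 5.16, 4.77 and 4.71 CPM in parental, 22.2, 12.8 and 13.0 CPM in Ctrl and 9.43, 9.58 and 10.1 CPM in p53 KO libraries. Parental libraries were lowest and Ctrl libraries highest, and Ctrl replicate 1 lay well above the other two. Against parental cells the log2 fold change was 0.99 ± 0.20 in p53 KO cells (adjusted p = 0.00654) and 1.70 ± 0.20 in Ctrl cells (adjusted p = 0.000243). Against Ctrl cells, p53 KO cells were lower by -0.71 ± 0.19 (adjusted p = 0.0145). Without Ctrl replicate 1 the last value was -0.41 (adjusted p = 0.0035) and Ctrl exceeded parental cells by 1.40, under the size of 1.5. Without p53 KO replicate 1 or 2 the difference from Ctrl cells missed the threshold (adjusted p = 0.0548 and 0.0515).

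WNT4 (chr1:22117313-22143969), a ligand with roles in epithelial and gonadal development, was low. Its counts were 20, 20 and 13 in parental, 6, 11 and 11 in Ctrl and 31, 22 and 17 in p53 KO libraries, which is 0.711 ± 0.0967, 0.371 ± 0.0584 and 0.907 ± 0.115 CPM (SD, n = 3). Ctrl libraries lay below all others. The p53 KO cells had a log2 fold change of 1.27 ± 0.25 against Ctrl cells (adjusted p = 0.00305) and 0.35 ± 0.22 against parental cells (adjusted p = 0.351, 95% interval -0.14 to 0.84). Ctrl against parental cells gave -0.92 ± 0.27 (adjusted p = 0.0335), a call that was lost with DESeq2 (adjusted p = 0.0845), with the replicate number as a block (0.0764) and without any 1 of 5 libraries (up to 0.111).

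The other tested ligands did not pass in any comparison. WNT3, which signals through beta-catenin, ranged from 9.34 to 11.6 CPM over the 9 libraries, with a log2 fold change of -0.19 (95% interval -0.39 to 0.0024) in p53 KO against parental cells. WNT10B and WNT2B each had 26 or fewer counts in every library, and their intervals were wide, from -0.94 to 1.15 for WNT10B and from -0.97 to 0.37 for WNT2B in the same comparison. Without parental replicate 1, whose 24 counts were the most of its group, WNT10B moved from 0.76 (adjusted p = 0.222) to 1.56 (0.0492) in Ctrl against parental cells. WNT1, WNT2, WNT3A, WNT6, WNT8A, WNT9B and WNT16 had no count in any library. The beta-catenin-independent ligand WNT5A had 4, 1 and 1 counts in p53 KO libraries and 0 in the others. Tested without the filter, WNT5A had an adjusted p of 0.0386 against the mean of both controls, 0.16 against parental and 0.127 against Ctrl cells. WNT5B had at most 3, WNT11 at most 3 and WNT8B 1 count.

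WNT9A, also under the filter, had 2, 1 and 1 counts in parental, 0, 0 and 0 in Ctrl and 3, 14 and 8 in p53 KO libraries. In CPM the p53 KO libraries lay above all others, but p53 KO replicate 1 was itself at the floor of 3 counts. Tested without the filter, WNT9A was higher in p53 KO cells, with an adjusted p of 0.016 (parental cells) and 4.13e-05 (Ctrl cells) in the edgeR test. That is a separate fit with its own estimate of the spread, and WNT9A was named after its values were seen. The mean CPM of p53 KO cells was 2.79 times the floor of 3 counts in parental libraries and 2.76 times that floor in Ctrl libraries. These ratios do not cover the counting error of the p53 KO libraries.

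**Figure D3:**
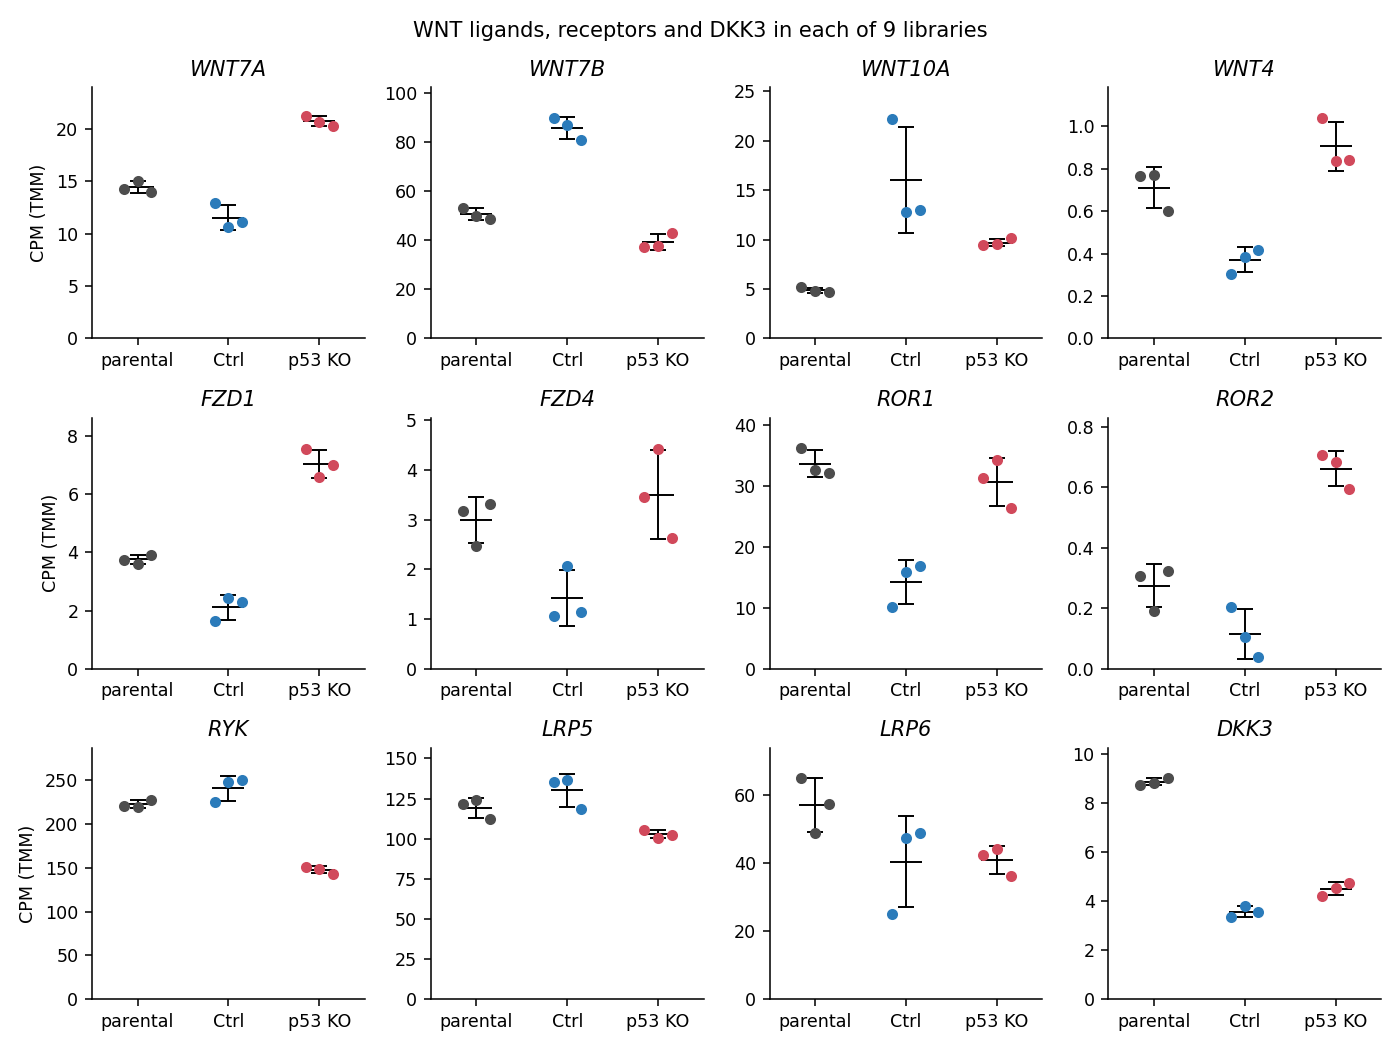
CPM of 12 members in each library (points), with the group mean and SD (n = 3, bars), on linear axes that start at 0. WNT7A, FZD1 and ROR2 are highest in p53 KO libraries and RYK is lowest there, whereas ROR1 and FZD4 are low in Ctrl libraries, and DKK3 is high in parental libraries.

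Among the frizzled receptors, the surface receptors that bind WNT ligands, FZD6 was by far the most abundant per kilobase, with 30.1 ± 1.58, 28.8 ± 5.99 and 26.6 ± 2.02 FPKM (SD, n = 3) in parental, Ctrl and p53 KO cells, and it did not pass in any comparison. Without Ctrl replicate 1, in which it was lowest at 89.0 CPM, FZD6 was lower in p53 KO than in Ctrl cells by a log2 fold change of -0.28 (adjusted p = 0.00825). FZD5, FZD2 and FZD7 followed at between 3.81 and 5.85 FPKM, where FZD2 stood above FZD7 in Ctrl cells, at 5.14 ± 0.537 beside 3.81 ± 0.511 FPKM, and below it in p53 KO cells, at 3.86 ± 0.297 beside 4.59 ± 0.0441 FPKM. FZD5 and FZD7 did not pass in any comparison, while without Ctrl replicate 2 FZD7 was higher in p53 KO than in Ctrl cells by 0.37 (adjusted p = 0.0242). The sum over all frizzled genes was 47.3 ± 2.23, 45.1 ± 6.68 and 43.8 ± 2.22 FPKM, ranges that overlap.

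FZD1 (chr7:91264433-91271326) showed the clearest difference of its family. It was measured at 3.75, 3.62 and 3.92 CPM in parental, 1.63, 2.42 and 2.29 CPM in Ctrl and 7.55, 6.58 and 7.0 CPM in p53 KO libraries. The groups did not overlap, with p53 KO libraries highest and Ctrl libraries lowest. It was 1.87-fold higher in p53 KO than in parental cells (log2 fold change 0.91 ± 0.13, adjusted p = 0.000937) and 3.28-fold higher than in Ctrl cells (1.71 ± 0.14, adjusted p = 1.08e-05). In Ctrl against parental cells it was lower, at -0.81 ± 0.15 (adjusted p = 0.00487). The 28 genes within 5 Mb of FZD1 on chromosome 7 had medians of 0.30 and 0.50 in the p53 KO comparisons, in the same direction and smaller, and their part in the result was not tested. As a share of frizzled RNA, FZD1 made up 1.15%, 0.677% and 2.33% in parental, Ctrl and p53 KO cells.

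FZD4 (chr11:86945679-86955395), also a receptor for norrin in vessel growth, was low in Ctrl cells. Its values were 3.18, 2.46 and 3.32 CPM in parental, 1.07, 2.07 and 1.14 CPM in Ctrl and 3.46, 4.41 and 2.63 CPM in p53 KO libraries. Parental and p53 KO libraries overlapped and Ctrl libraries lay below both. The log2 fold change was 1.27 ± 0.27 in p53 KO against Ctrl (adjusted p = 0.00437), -1.02 ± 0.27 in Ctrl against parental (adjusted p = 0.0254) and 0.25 ± 0.24 in p53 KO against parental cells (adjusted p = 0.523). The difference between the controls was lost without parental replicate 1 (adjusted p = 0.0887), parental replicate 3 (0.0843) or Ctrl replicate 3 (0.0535).

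FZD3, a receptor of planar polarity, was higher in p53 KO than in Ctrl cells by 0.56 ± 0.11 (adjusted p = 0.00373), beside a median of 0.47 for the 34 genes within 5 Mb on chromosome 8, and the part of that region in the result was not tested. FZD2 was lower by -0.41 ± 0.10 (adjusted p = 0.00979). Neither passed against parental cells (adjusted p = 0.221 and 0.0743), although FZD2, at a log2 fold change of -0.29, did so without Ctrl replicate 1 (adjusted p = 0.0199), without Ctrl replicate 3 (0.0447) and on only the groups compared (0.0181). FZD8 had no count, FZD9 had 2 to 11 counts and FZD10 at most 4 counts per library.

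The co-receptors of the beta-catenin branch were not called higher in any comparison. LRP5 (chr11:68312591-68449275) had 122, 124 and 112 CPM in parental, 135, 136 and 118 CPM in Ctrl and 106, 101 and 103 CPM in p53 KO libraries. All p53 KO libraries were below all others, by a log2 fold change of -0.34 ± 0.08 against Ctrl cells (adjusted p = 0.00674) and of -0.21 ± 0.08 against parental cells, which did not pass (adjusted p = 0.0823). At nearly the same size LRP5 passed against parental cells with DESeq2 (adjusted p = 0.0494), on only the groups compared (0.0143) and without Ctrl replicate 1 (0.0222) or 3 (0.0437). LRP6 (chr12:12116025-12267044) had 64.9, 48.8 and 57.3 CPM in parental, 25.1, 47.2 and 48.9 CPM in Ctrl and 42.4, 44.0 and 36.3 CPM in p53 KO libraries. The low value in Ctrl replicate 1 widened the spread, and LRP6 passed in no comparison (adjusted p = 0.143, 0.968 and 0.115). Without Ctrl replicate 1 its log2 fold change of -0.47 in p53 KO against parental cells had an adjusted p of 0.00167, and fitted without the filter or on only the groups compared it also passed (0.000895 and 0.00259). Without the filter LRP6 was also lower in Ctrl than in parental cells, by -0.49 (adjusted p = 0.000484). Its exons sum to 10.4 kb, among the longer of the members.

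ROR1 and ROR2, receptor tyrosine kinases that bind WNT5A, differed between the lines in unlike ways. ROR1 (chr1:63774017-64181498) was at 36.2, 32.6 and 32.2 CPM in parental, 10.2, 15.9 and 16.8 CPM in Ctrl and 31.3, 34.3 and 26.4 CPM in p53 KO libraries. Ctrl libraries stood below the overlapping values of the other two groups. The log2 fold change was 1.09 ± 0.16 in p53 KO against Ctrl (adjusted p = 0.000526), -1.22 ± 0.16 in Ctrl against parental (adjusted p = 0.000602) and -0.13 ± 0.16 in p53 KO against parental cells (adjusted p = 0.614, 95% interval -0.48 to 0.22). Leaving out Ctrl replicate 1 moved the first of these to 0.91.

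ROR2 (chr9:91563091-91950228) was rare. Its counts were 8, 5 and 7 in parental, 4, 3 and 1 in Ctrl and 21, 18 and 12 in p53 KO libraries, or 0.274 ± 0.071, 0.116 ± 0.0834 and 0.661 ± 0.0581 CPM (SD, n = 3). All p53 KO libraries were above all control libraries, whereas the controls overlapped. The log2 fold change was 2.57 ± 0.42 against Ctrl cells (adjusted p = 0.000894, 95% interval 1.64 to 3.50) and 1.28 ± 0.35 against parental cells (adjusted p = 0.0263, 95% interval 0.52 to 2.05). The call against parental cells was lost with DESeq2 (adjusted p = 0.0603), with the replicate number as a block (0.0611) and without any 1 of the 6 parental and p53 KO libraries (up to 0.117).

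RYK (chr3:134065303-134250859), a receptor with an inactive kinase domain, was the most abundant of the 5 co-receptors or other receptors per kilobase and fell in p53 KO cells. Its level ranged from 219 to 228 CPM in parental, from 225 to 250 CPM in Ctrl and from 143 to 151 CPM in p53 KO libraries, so the p53 KO libraries lay below all others. It decreased 1.51-fold against parental (log2 fold change -0.59 ± 0.07, adjusted p = 0.000195) and 1.63-fold against Ctrl cells (-0.70 ± 0.07, adjusted p = 2.32e-05), and the controls did not pass against each other (0.11 ± 0.07, adjusted p = 0.224). The 38 genes within 5 Mb on chromosome 3 also leaned downwards, with medians of -0.38 and -0.46, and their part in the result was not tested.

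Secreted antagonists were few. DKK1, which binds LRP5 and LRP6 and blocks the beta-catenin branch, had the highest mean FPKM of the 24 genes in each group, at 32.3 ± 0.285, 35.8 ± 2.12 and 37.9 ± 3.32 FPKM in parental, Ctrl and p53 KO cells. That order depends on the summed exon lengths, 2.22 kb for DKK1 and 8.16 kb for RYK, since RYK had the higher mean CPM in each group. Lengths of the transcripts present in these cells were not used. DKK1 passed in no comparison, with a log2 fold change of 0.23 (95% interval 0.05 to 0.41, adjusted p = 0.0742) in p53 KO against parental cells. That difference in DKK1 passed without Ctrl replicate 1 (adjusted p = 0.0173), without p53 KO replicate 1 (0.0449) and on only the groups compared (0.0208). The 14 genes within 5 Mb of DKK1 on chromosome 10 had medians of 0.45 against parental and 0.52 against Ctrl cells. Their part in the result was not tested. DKK4, WIF1, SFRP2, SFRP4 and SFRP5 had no count, and DKK2, FRZB and SFRP1 had at most 2 counts in any library.

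DKK3 (chr11:11956207-12009769), a secreted relative of DKK1 that does not share its binding to LRP6, was lower in both edited lines. It was at 8.76, 8.85 and 9.04 CPM in parental, 3.37, 3.83 and 3.55 CPM in Ctrl and 4.23, 4.56 and 4.76 CPM in p53 KO libraries. Parental libraries were about level with each other and above all edited libraries. The log2 fold change against parental cells was -0.98 ± 0.10 in p53 KO (adjusted p = 0.000116) and -1.30 ± 0.10 in Ctrl cells (adjusted p = 1.88e-05). The small difference of 0.32 ± 0.11 between p53 KO and Ctrl cells (adjusted p = 0.0463) was lost with DESeq2 (0.108), without any 1 of the 9 libraries (up to 0.118) and in fits that took other libraries or no filter.

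Genes of receptor turnover gave 1 call. LGR4, a receptor for R-spondins, and RNF43 passed in no comparison. ZNRF3, a membrane ubiquitin ligase like RNF43, was lower in p53 KO than in parental cells by -0.34 ± 0.11 (adjusted p = 0.0458), a call lost with the replicate number as a block (adjusted p = 0.0966) and without any 1 of 7 libraries (up to 0.175). Against Ctrl cells ZNRF3 did not pass (-0.22, adjusted p = 0.153) but did so without Ctrl replicate 1 (-0.32, adjusted p = 0.0121). The 57 genes within 5 Mb of ZNRF3 on chromosome 22 had medians of -0.17 against parental and -0.42 against Ctrl cells. Their part in the result was not tested. LGR5 had no count. AXIN2, a feedback gene that is widely read as a sign of beta-catenin activity, had 3, 3 and 2 counts in parental, 0, 0 and 0 in Ctrl and 4, 1 and 2 in p53 KO libraries. These values lie at or next to the floor, so a difference in AXIN2 was not detectable at this depth. Without the filter Ctrl against parental cells had an adjusted p of 0.047, with both groups at or under the floor.

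**Figure D4:**
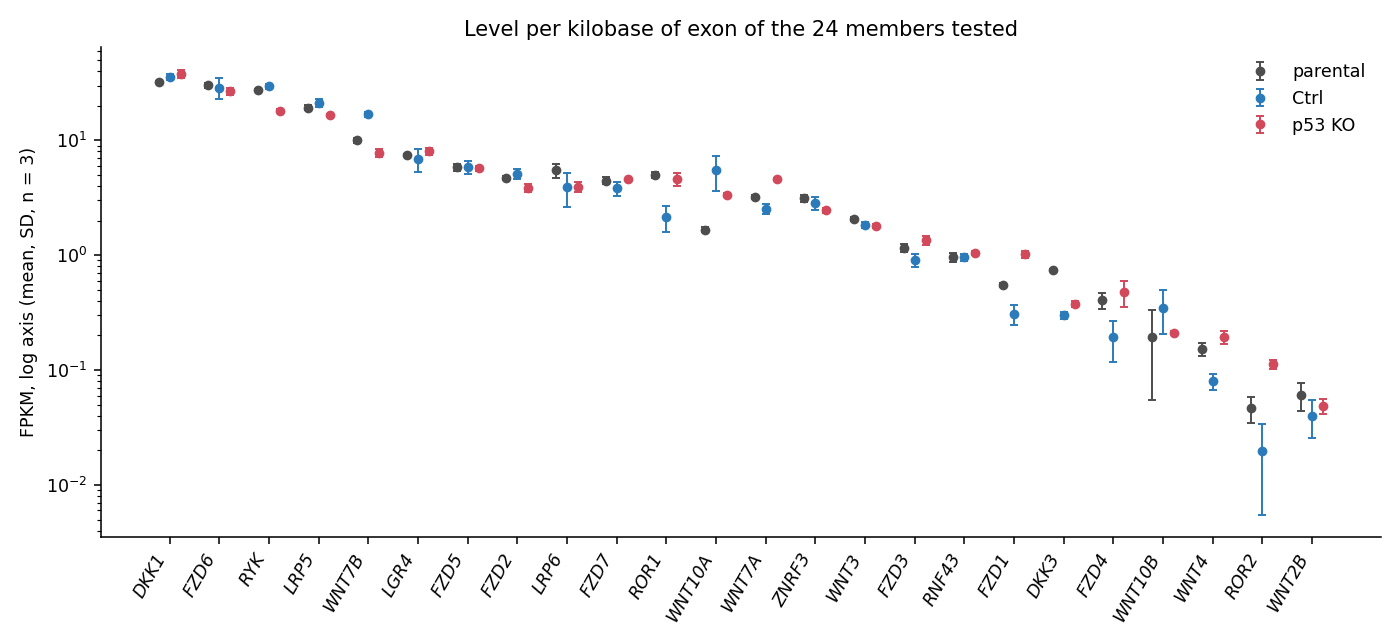
Mean FPKM with SD (n = 3) of the 24 tested genes in the 3 groups, on a log axis and ordered by their mean over groups. Levels run from over 30 FPKM for DKK1 to under 0.1 FPKM for WNT2B, and the groups part most for ROR2, WNT10A and FZD1.

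Genes that load, release and modulate WNT ligands were taken as a list of 25, of which 9 were tested. This list and the lists below were chosen with earlier results of these data known. Their called shares may therefore reflect that choice and are descriptions only. In p53 KO cells 2 rose and 2 fell against parental cells, and 1 rose and 4 fell against Ctrl cells. Ctrl cells had 4 higher and 1 lower than parental cells. That is 44.4%, 55.6% and 55.6% of the 9 tested genes, beside 18.1%, 29.2% and 20.3% of all genes. The medians of these 9 genes were 0.085, -0.47 and 0.38. PORCN (chrX:48508959-48520814), the acyltransferase that attaches the lipid to WNT proteins, was at 10.5, 11.1 and 11.4 CPM in parental, 6.12, 5.51 and 4.8 CPM in Ctrl and 19.8, 20.0 and 21.0 CPM in p53 KO libraries. WLS (chr1:68098473-68233120), the carrier that brings lipid-bearing WNT proteins to the surface, was at 21.8, 26.0 and 27.5 CPM in parental, 35.3, 38.2 and 33.4 CPM in Ctrl and 14.5, 13.9 and 13.7 CPM in p53 KO libraries. The groups did not overlap for either gene, and their orders were opposite.

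PORCN had log2 fold changes of 0.88 ± 0.10 against parental (adjusted p = 0.000155) and 1.89 ± 0.10 against Ctrl cells (adjusted p = 4.76e-07), and WLS had -0.83 ± 0.10 (adjusted p = 0.000326) and -1.34 ± 0.10 (adjusted p = 4.86e-06). Around PORCN on chromosome X, 48 genes had medians of 0.24 and 0.93 in these comparisons, and their part in its result was not tested. Around WLS the medians of 23 genes were -0.076 and 0.036. KREMEN1, a partner of DKK1 at the membrane, was lower by -0.62 and -0.85 (adjusted p = 0.000816 and 4.59e-05), with medians of -0.17 and -0.41 for its neighbours on chromosome 22. SERPINF1, a secreted serpin, was at 0.648 to 1.27 CPM in Ctrl libraries and at most 0.298 CPM in all others, and was higher in Ctrl than in parental cells by 2.55 (adjusted p = 0.00253) and lower in p53 KO than in Ctrl cells by -2.47 (adjusted p = 0.00127). It reached 10 counts in Ctrl libraries only, so it could pass the filter only by being higher there. LYPD6, a membrane enhancer of LRP6, was higher than parental in p53 KO cells by 0.77 (adjusted p = 0.00117) and in Ctrl cells by 0.54 (adjusted p = 0.0102). No ligand for LGR receptors was seen, since RSPO1, RSPO3 and RSPO4 had 0 counts and RSPO2 had 2 counts in 1 library. LGR6, which missed the filter, had 24, 9 and 15 counts in p53 KO, 5, 5 and 4 in parental and 2, 0 and 0 in Ctrl libraries. Its mean CPM in p53 KO cells was 5.08 times the floor of 3 counts in Ctrl libraries.

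**Figure D5:**
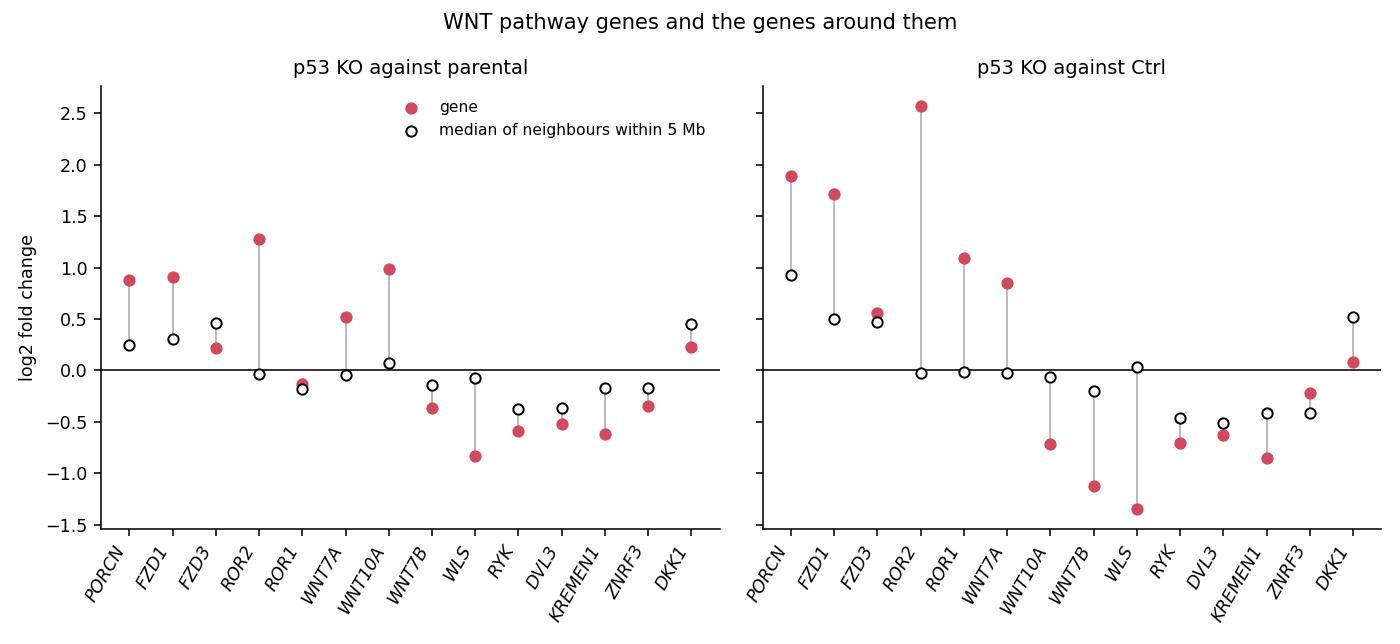
Log2 fold change of 14 WNT pathway genes (filled points) and the median of the tested genes within 5 Mb (open points) in p53 KO against parental (left) and against Ctrl cells (right). ROR2, WNT7A, WNT10A and WLS stand away from neighbours near 0. PORCN, FZD1, FZD3, RYK, DVL3, KREMEN1, WNT7B, ZNRF3 and DKK1 lie on the same side as their neighbours in both panels, and ROR1 does so on the left only.

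Downstream of the receptors, all 24 listed genes of the beta-catenin destruction complex and cytoplasmic transducers were tested. In p53 KO cells 2 rose and 2 fell against parental cells, and 3 rose and 7 fell against Ctrl cells. Ctrl cells had 3 higher and 1 lower than parental cells. These are 16.7%, 41.7% and 16.7% of the list, beside 18.1%, 29.2% and 20.3% of all genes. The medians were -0.14, -0.013 and 0.0071. CTNNB1, which encodes beta-catenin, was at 293.1 ± 9.50, 235.6 ± 18.4 and 252.6 ± 9.30 CPM (SD, n = 3) in parental, Ctrl and p53 KO cells. It did not pass in p53 KO against parental (-0.21, adjusted p = 0.0629) or Ctrl cells (0.10, adjusted p = 0.335), and was lower in Ctrl than in parental cells (-0.31, adjusted p = 0.0127). APC2, FRAT1, FRAT2, BTRC and DVL3 had the largest values of the list. APC2, a relative of the scaffold APC, rose by 1.35 against Ctrl cells (adjusted p = 0.043) with at most 0.316 CPM in any control library, and missed the threshold against parental cells (1.44, adjusted p = 0.0502). Only in p53 KO cells did all libraries hold 10 counts of APC2, so it could be tested only by being higher there. FRAT1, an inhibitor of GSK3, was lower by -1.0 (adjusted p = 0.00257) against Ctrl cells, while its relative FRAT2 was higher by 0.75 (adjusted p = 0.00269) against parental cells. Ctrl was the high group for FRAT1, with means of 1.49, 2.56 and 1.25 CPM in parental, Ctrl and p53 KO cells. FRAT2 stood at 17.6, 26.4 and 29.6 CPM in the same order, so Ctrl cells also lay above parental cells. BTRC, part of the ligase that degrades beta-catenin, rose by 0.45 and 0.67 (adjusted p = 0.004 and 0.000175). It lies on chromosome 10, where FRAT2, CTBP2 and CAMK2G also had their highest means in p53 KO cells and FRAT1 had its lowest. The genes around BTRC were not examined, and their part in its result was not tested. DVL3, a dishevelled protein that relays the frizzled signal, fell by 0.52 and 0.63 on the log2 scale (adjusted p = 0.000545 and 7.47e-05), beside medians of -0.37 and -0.51 among its neighbours on chromosome 3.

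Of 19 nuclear effectors, 17 were tested. Against parental cells 4 rose and 1 fell in the p53 KO line, and 5 rose and 1 fell against Ctrl cells, while 2 were higher and 1 lower in Ctrl than in parental cells. The shares of the 17 tested genes called were 29.4%, 35.3% and 17.6%, beside 18.1%, 29.2% and 20.3% of all genes. The medians were 0.033, -0.020 and -0.0054. TCF7L1, a TCF factor that often represses, had the largest change against Ctrl cells, at 0.536, 0.654 and 0.692 CPM in parental, 0.612, 0.527 and 0.458 CPM in Ctrl and 1.61, 1.98 and 2.28 CPM in p53 KO libraries. It was higher in p53 KO cells by 1.62 ± 0.22 (adjusted p = 0.000537) and 1.87 ± 0.23 (adjusted p = 0.000122), and the controls overlapped. The co-repressor TLE2 rose by 2.63 and 1.11 (adjusted p = 0.000829 and 0.0182), so Ctrl cells stood above parental cells as well. TLE3 rose by 0.44 against parental cells (adjusted p = 0.00491). TLE4 fell by 0.58 on the log2 scale against Ctrl cells (adjusted p = 0.0382) and the co-activator BCL9 fell by 0.53 on the log2 scale against parental cells (adjusted p = 0.00278). Means of BCL9 were 33.4, 27.0 and 23.1 CPM in parental, Ctrl and p53 KO cells, so Ctrl cells also lay below parental cells. LEF1 and PYGO1 had no count in any library.

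Of 25 further genes widely used as beta-catenin targets, 15 were tested. Knockout cells had 3 higher and 2 lower than parental cells and 5 higher and 2 lower than Ctrl cells, and Ctrl cells had 2 higher and 4 lower than parental cells. Of the 15 tested genes, 33.3%, 46.7% and 40% were called, beside 18.1%, 29.2% and 20.3% of all genes. The medians were 0.033, -0.013 and -0.055. NKD1, NKD2, NOTUM and APCDD1, which together with AXIN2 answer WNT signals in many tissues, had no count in any library. SOX9 was higher by 1.21 in p53 KO against Ctrl cells (adjusted p = 8.37e-06) and by 0.25 against parental cells, which did not pass (adjusted p = 0.101), since Ctrl was the group that lay low. BMP4 was higher in both comparisons, by 0.74 (adjusted p = 0.00464) and 1.11 (adjusted p = 0.000258), and so was PLAUR, by 0.56 (adjusted p = 0.00606) and 0.74 (adjusted p = 0.000623). JUN was higher than in Ctrl cells by 0.75 (adjusted p = 0.000187), with -0.29 against parental cells (adjusted p = 0.0572), and Ctrl was the low group. EPHB3 was higher than in parental cells by 0.68 (adjusted p = 0.00215). Its means were 5.31, 7.17 and 8.52 CPM in parental, Ctrl and p53 KO cells, so Ctrl cells also lay above parental cells. The genes called lower moved less and are named after their values were seen, with CCND1 at -0.39 (adjusted p = 0.0107) and CD44 at -0.33 (adjusted p = 0.0231) against parental cells. Ctrl cells lay below parental cells for both. Means in parental, Ctrl and p53 KO cells were 883, 738 and 675 CPM for CCND1, and 534, 429 and 426 CPM for CD44.

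Of 32 genes of the planar cell polarity and calcium branch, 24 were tested. Here 6 rose and 3 fell in p53 KO against parental cells and 8 rose and 3 fell against Ctrl cells, while the controls differed by 0 higher and 4 lower in Ctrl cells. Calls took in 37.5%, 45.8% and 16.7% of the 24 tested genes, beside 18.1%, 29.2% and 20.3% of all genes. The medians were 0.044, 0.14 and -0.21. The calcium-regulated factor NFATC2 was at 0.115 to 0.277 CPM in parental, 0.102 to 0.153 CPM in Ctrl and 0.744 to 1.04 CPM in p53 KO libraries, above all control libraries. Its log2 fold changes were 2.09 ± 0.32 (adjusted p = 0.00127) and 2.76 ± 0.36 (adjusted p = 0.000192). Like ROR2, NFATC2 reached 10 counts in all libraries of p53 KO cells only, and could pass the filter only by being higher there. PRICKLE3, a polarity protein, was higher by 0.40 and 1.15 (adjusted p = 0.0154 and 1.3e-05) beside medians of 0.24 and 0.92 among its neighbours on chromosome X. CAMK2D, a calcium-dependent kinase, was higher by 0.70 against parental cells (adjusted p = 0.00995), PRKCA by 0.74 against Ctrl cells (adjusted p = 0.000124) with -0.027 against parental cells (adjusted p = 0.858), and NLK, a kinase that acts on TCF factors, fell by 0.64 and 0.44 on the log2 scale (adjusted p = 0.00255 and 0.0132).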

How the data were processed

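Per the labels, RNA of A431 cells was made into strand-specific poly(A) libraries, 3 per group, and sequenced as paired-end reads of 75 bp. Per the labels and the study's methods, the authors aligned reads with STAR 2.5.1b to GRCh38 and counted them per gene of Ensembl release 85 with featureCounts, whose version and strand setting are not given in the sources used here. The authors deposited whole-number counts without normalization for 58051 genes in 9 libraries. Each column was mapped to its library by name, 0 columns belonged to other samples and 0 rows lacked a gene name.

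Groups follow the GEO labels. Genes were filtered with filterByExpr at a minimum count of 10, and all 9 libraries were fitted together with 1 mean per group in edgeR 4.0.16 (R 4.3.3, limma 3.58.1) after TMM scaling. The quasi-likelihood F test was used, with Benjamini-Hochberg adjustment over all 14513 genes, and standard errors were taken from the F statistic. Intervals are 95%. FPKM is CPM divided by the summed exon length in GENCODE release 44, where 14397 of the genes tested have a position. Neighbours are tested genes within 5 Mb with a mean log2 CPM above 2. Depth sets the precision, and the floor of 3 counts covers counting error only.

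The members were given by symbol, and the pathway lists and the named-gene rule were chosen with earlier results of these data known. By that rule, members with an adjusted p of at most 0.05 and a log2 fold change of at least 1 in any pairwise comparison are given in every library, and so are LRP5, LRP6 and AXIN2. Each pathway list contributes up to 5 genes with the largest called change, together with CTNNB1, PORCN and WLS. WNT7A, RYK, WNT9A, LGR6, CTBP2, CAMK2G and the genes at 0 counts were added after their values were seen. PRICKLE4 has 2 overlapping gene identifiers in the table, of which 1 was tested. No set test was run. The level of the edited gene is not reported here. On simulated counts for the comparison of p53 KO and parental libraries at a change of 2 on the log2 scale (14513 genes, 196 changed genes tested), edgeR recovered 97.4% and DESeq2 96.9%, and 4.98% and 12.4% of their calls were false. The members called in that comparison changed by less, so the recovered share does not apply to them. The false share holds only for that number of changed genes.

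Each fit was repeated for the members with DESeq2 1.42.0 or with its size factors. It was also repeated with every gene of at least 1 count in total, or with genes of 10 or more counts in all libraries. Further fits took the replicate number as a blocking term, the compared pair of groups alone, or 1 library left out at a time. Calls of the pathway list genes were not checked in these fits. Figures were drawn with matplotlib 3.10.9.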

Additional observations from a re-analysis of the deposited data

Results flagged for a closer look

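FZD1, WNT7A and WNT7B each moved in opposite directions against parental cells in the 2 edited lines. They were picked because they also passed in p53 KO against Ctrl cells (quasi-likelihood test of edgeR, adjusted over all genes tested). The adjusted p-values below are therefore part of the choice and add no separate support. FZD1 was higher than in parental cells in p53 KO cells by 0.91 and lower in Ctrl cells by -0.81, which left 1.71 between the lines (adjusted p = 1.08e-05). WNT7A had 0.52 in p53 KO and -0.33 in Ctrl cells, a difference of 0.85 (adjusted p = 5.83e-05). Its call in Ctrl cells was lost when some single libraries were left out (adjusted p of up to 0.106). WNT7B had -0.36 in p53 KO and 0.76 in Ctrl cells, a difference of -1.13 (adjusted p = 3.67e-06). Its call in p53 KO against parental cells was lost in the same way (adjusted p of up to 0.0567). All values are log2 fold changes, and for each gene every library of a group lay on 1 side of every parental library. The parental libraries enter both contrasts. Per the labels, cells were grown as single colonies, but the labels do not say whether an edited line is 1 clone or a pool. Loss of p53 is seen in 1 line only, so line and genotype cannot be told apart. The genes within 5 Mb of FZD1 had medians of 0.30 in p53 KO and -0.22 in Ctrl cells against parental cells, and those around WNT7A and WNT7B stayed between -0.14 and 0.029. Their part was not tested.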

How the results depend on the processing

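Over 1399 results for single members under the alternatives, 1292 kept their direction and side of the threshold, 84 fell short of it, 23 newly passed it and 0 called values changed sign, while 31 uncalled values did. The number of members called ranged from 5 to 13 in p53 KO against parental cells when 1 library was left out. It was 5 without parental replicate 1 (10.6% of all genes) or p53 KO replicate 2 (12.1%), and 13 without Ctrl replicate 1 (33.5%). The share of all genes called thus moved with these numbers. Against Ctrl cells the number of members called ranged from 11 (without p53 KO replicate 2, 21.0% of all genes) to 15 (without Ctrl replicate 1, 35.0%). In Ctrl against parental cells it ranged from 5 (without parental replicate 3, 10.7%) to 8 (without p53 KO replicate 3, 19.0%). Against the mean of both controls it ranged from 6 (without p53 KO replicate 2, 17.2% of all genes) to 17 (without Ctrl replicate 1, 37.4%). It was 7 without p53 KO replicate 1 (17.1%).

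With 1 library left out, members past a log2 fold change of 1.5 ranged from 0 to 1 in p53 KO against parental cells. There was 1 without Ctrl replicate 1 (2.22% of all genes) or p53 KO replicate 1 (1.86%). Against Ctrl cells the range was 2 to 4, with 4 without Ctrl replicate 2 (3.55%). In Ctrl against parental cells it was 0 to 2, with 0 without Ctrl replicate 1 (1.92%) and 2 without parental replicate 1 (1.73%). Against the mean of both controls it was 1 to 2, with 1 without p53 KO replicate 2 (2.43%) or 3 (2.48%). Without a filter the numbers past 1.5 were 1, 3, 2 and 3, beside 1.53%, 2.64%, 1.45% and 2.13% of all genes. At least 10 counts in every library left 1 against Ctrl cells (1.24% of all genes) and 0 against the mean of both controls (0.625%). That limit removes ROR2 by its construction. DESeq2 and its size factors changed none of the counts of called members by over 1.5 times. Depth limits the rarest members, since 3 counts in a library correspond to 0.101 to 0.152 CPM.

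With the replicate number as a block, 6 members were called in p53 KO against parental (12.1% of all genes) and 12 against Ctrl cells (23.5%). Of 96 results for single members, 88 kept their call. Of 9 same-numbered pairs of libraries, 1 had deviations that correlated above 0.1 (range -0.72 to 0.22). Differently numbered pairs ranged from -0.54 to 0.75. Highest were Ctrl 1 with p53 KO 3 (0.75), Ctrl 3 with p53 KO 2 (0.63) and Ctrl 2 with p53 KO 1 (0.56). A block on the replicate number cannot take up what such libraries share, and its source was not tested.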
